A study of Homo sapiens with 12 samples.

Results

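Glycyrrhizin and ursodeoxycholic acid are hepatoprotective agents of different structure, and the arrays described here set one against the other in cells labelled HepG2. Glycyrrhizin, from the root of liquorice, is a saponin in which sugar acids are joined to a triterpenoid. Ursodeoxycholic acid is a hydrophilic bile acid, a steroid that carries a carboxyl side chain. The comparison took the 3 arrays of cells given 25 µM glycyrrhizin and the 3 arrays of cells given 25 µM ursodeoxycholic acid, 6 of the 12 arrays of the series. The other arrays came from 3 mock-treated controls and from 3 samples given 25 µM silymarin, the flavonolignan extract of milk thistle. All cells were grown in DMEM with fetal bovine serum, the time of treatment is not given in the sources used here, and the agents were compared as 1 pair at 1 matched dose.

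In the liver, bile acids are made from cholesterol, joined to taurine or glycine and pumped into bile. They also act as signals, through the nuclear receptor FXR, which represses their synthesis, and through the membrane receptor TGR5. Ursodeoxycholic acid is used as a drug in cholestasis, when bile does not flow. Glycyrrhizin is known for another route: it and its aglycone inhibit the 11-beta-hydroxysteroid dehydrogenases, the enzymes that interconvert cortisol and inactive cortisone. Genes of bile acid handling and of the cortisol response were therefore the families read first, before the question of which families stayed alike.

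The measurement was the intensity of a Cy5-labelled one-colour oligonucleotide array, deposited on a linear scale and taken here as log2. It covered 13881 named genes, each at its brightest probe. The median gene had a log2 intensity of 6.7. Arrays were correlated across the named genes, each at its brightest probe, and genes are not independent replicates. The r was 0.951 to 0.958 within glycyrrhizin, 0.918 to 0.945 within ursodeoxycholic acid and 0.919 to 0.953 between the agents. Ursodeoxycholic acid replicate 1 had the lowest median correlation with the other arrays, 0.923. Whether replicate arrays stand for separate cultures is not said in the labels, so p-values measure array-to-array spread that may be technical, and 3 arrays per group limit the precision.

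The cell label was set against marker genes. Of 14 hepatocyte markers 11 were measured, at levels from 3.55 for APOH to 8.89 for APOB with a median of 6.79, and ALB was not analysed here. Of these 11, 6 lay above the median gene. Median levels of the endothelial, cholangiocyte, fibroblast and leukocyte markers were 7.68, 7.14, 6.15 and 5.49. Of 12 markers of neuroblasts and sympathetic neurons 9 were measured, at levels from 5.2 to 12.49 with a median of 8.77, and 7 lay above the median gene. Among the brighter of the 9, TH, the rate-limiting enzyme of catecholamine synthesis, lay at 12.49, STMN2 at 11.08 and ISL1 at 10.15. TH was brighter than 97.0% of the named genes. Probes differ in brightness for reasons other than transcript level, so these levels give no ratio between genes, but the hepatocyte markers did not stand out, and the cells are called here by their label. Between the agents, 0 of the 9 neuroblast markers and 2 of the 11 hepatocyte markers, AFP lower and ASGR1 higher with glycyrrhizin, had an unadjusted limma p under 0.05, against 4.68% of all genes. The neuroblast markers' summed log2 level was 73.93 to 79.48 on the glycyrrhizin arrays and 75.94 to 78.96 on the ursodeoxycholic acid arrays. The summed level of the hepatocyte markers was 70.17 to 73.8 and 69.71 to 72.83.

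No gene differed between glycyrrhizin and ursodeoxycholic acid past the threshold. In limma, with p-values adjusted over all genes by the Benjamini-Hochberg method, 0 of 13881 genes lay under 0.05 (0.0%), and the lowest adjusted p was 0.388. At an unadjusted limma p under 0.05 there were 649 genes, 4.68% of those tested, where 694.1 would be given by chance. Of these, 343 were measured higher with glycyrrhizin (2.47%) and 306 lower (2.2%). The differences were centred near 0: 6888 genes (49.6%) were measured higher with glycyrrhizin, and the median size of a difference was 0.254 log2 units against a median SE of 0.34. The groups did not overlap in 1606 genes (11.6%), 799 higher with glycyrrhizin (5.76%) and 807 lower (5.81%).

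The same fit did find genes that separated each agent from silymarin. Glycyrrhizin differed from silymarin in 7 genes (0.0504%) and ursodeoxycholic acid in 4 (0.0288%) at an adjusted p under 0.05. At an unadjusted p under 0.05 these comparisons gave 1292 genes (9.31%) and 1116 genes (8.04%). Against control the agents gave 0 genes each (0.0%), with 746 (5.37%) and 734 (5.29%) at the unadjusted limit. The difference between these counts was not tested.

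**Figure D1:**
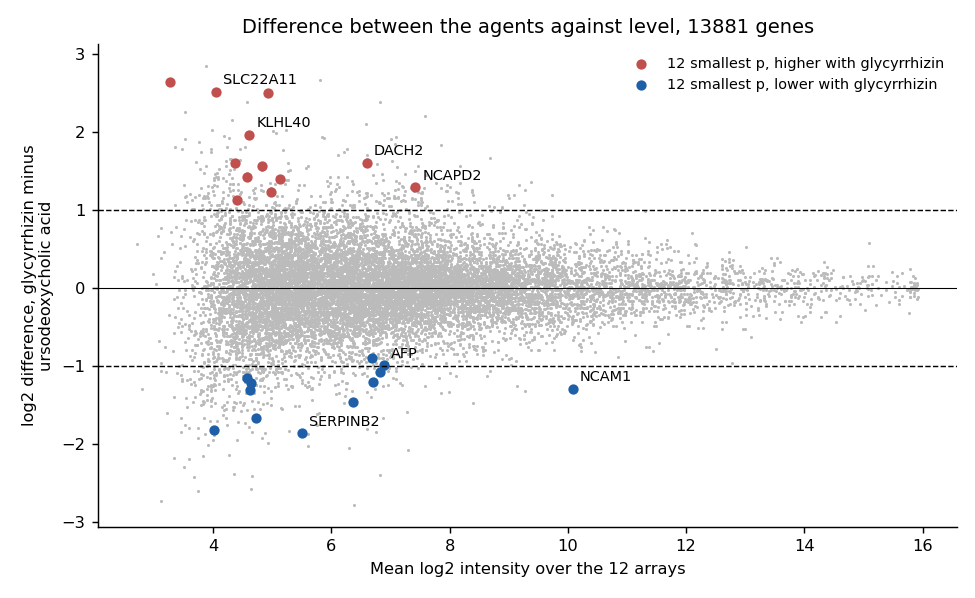
Log2 difference, glycyrrhizin minus ursodeoxycholic acid (vertical axis), against mean log2 intensity over the 12 arrays (horizontal axis) for 13881 genes, with dashed lines at 2-fold. The coloured points are the 12 genes with the smallest p in each direction, of which 11 of the higher and 9 of the lower ones lay below the median level of 6.7, while NCAM1 lay at 10.08.

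Genes measured higher with glycyrrhizin were led by SLC22A11, which encodes OAT4, a transporter that exchanges organic anions, steroid sulfates and urate. Its log2 intensity was 4.85, 4.24 and 4.52 on the glycyrrhizin arrays and 2.17, 1.46 and 2.42 on the ursodeoxycholic acid arrays. The groups were far apart, and the low side was that of ursodeoxycholic acid: control averaged 4.65 and silymarin 4.94. The log2 difference of 2.52 (SE 0.37, n = 3 per group) had an adjusted limma p of 0.388. With no detection call these low ursodeoxycholic acid values cannot be told from background, so no fold is given, and with 16 added before the log the difference was 0.97. Against silymarin the ursodeoxycholic acid arrays were lower by 2.92 with an adjusted p of 0.0475, so SLC22A11 was one of the genes that passed the threshold in that comparison. The gene was dim, with only 2.87% of genes below it.

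KLHL40, a kelch protein that stabilises thin-filament proteins of muscle, showed the same order. Glycyrrhizin arrays read 4.95, 4.98 and 4.86 and ursodeoxycholic acid arrays 2.17, 3.18 and 3.53, with control at 5.4. PRPF38A, a splicing factor, read 5.4, 4.98 and 4.82 against 3.37, 3.48 and 3.53, with control between them at 4.11. Both had an adjusted limma p of 0.388, and the differences were 1.97 (SE 0.31) and 1.61 (SE 0.27). In neither gene did the groups overlap. As in SLC22A11, the low ursodeoxycholic acid values of both cannot be told from background, so the sizes of these differences are uncertain.

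The only gene of the 12 with the smallest p that lay above the median level was NCAPD2, a subunit of the condensin complex that compacts mitotic chromosomes. It read 8.12, 7.93 and 7.73 with glycyrrhizin and 6.13, 7.17 and 6.56 with ursodeoxycholic acid, a difference of 1.3 (SE 0.3, adjusted p 0.882). DACH2, a transcription cofactor, read 7.55, 6.91 and 7.22 against 4.79, 5.81 and 6.26, a difference of 1.61 (SE 0.38). The remaining members were ALDH8A1, a dehydrogenase that acts on retinal (2.64), CLBA1 (2.5), GET1, part of the machinery that inserts tail-anchored proteins (1.56), RASL11A (1.43), LINC01587 (1.4), MDFI (1.23) and NGDN (1.13). ALDH8A1 averaged 4.24 with glycyrrhizin and 1.6 with ursodeoxycholic acid (SE of the difference 0.61). As in SLC22A11, its low values cannot be told from background, so the size of its difference is uncertain. Other probes of GET1 and LINC01587 did not repeat the difference: GET1 gave -0.16 (SE 0.57) at a probe of nearly equal brightness, and LINC01587 gave -0.09 (SE 0.65). Over these 12 genes adjusted p ran from 0.388 to 0.882, and the control mean lay nearer to glycyrrhizin in 9 and nearer to ursodeoxycholic acid in 3.

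Genes measured lower with glycyrrhizin were led by NCAM1, a neural cell adhesion molecule also carried by some epithelial and blood cells. Its glycyrrhizin arrays read 8.9, 9.54 and 8.97. The ursodeoxycholic acid arrays read 10.5, 10.24 and 10.52, the control arrays 10.45, 10.19 and 10.33 and the silymarin arrays 10.49, 10.3 and 10.47. All 9 arrays without glycyrrhizin thus lay above the highest glycyrrhizin array. The difference between the agents was -1.29 (SE 0.22, 95% interval -1.77 to -0.81), 2.44-fold, with an adjusted limma p of 0.388. NCAM1 was brighter than 90.2% of genes, so this difference was measured well above the dim range where most of the others lay. It stayed between -1.49 and -1.17 when any array was left out. That range is no separate support, since NCAM1 was picked for a small p in these same arrays. Of the neuroblast markers set out above, TH differed by 0.15 (-0.44 to 0.74), PHOX2A by 0.18 (-0.29 to 0.65) and STMN2 by -0.24 (-1.06 to 0.58).

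AFP, the fetal plasma protein made by hepatocyte precursors and many liver tumours, was also among the 12 with the smallest p. It read 6.55, 6.27 and 5.93 with glycyrrhizin and 7.18, 7.1 and 7.46 with ursodeoxycholic acid, with control at 6.85, 6.89 and 7.18. The agents did not overlap, and each lay on its own side of the control mean of 6.98. The difference was -0.99 (SE 0.21, -1.47 to -0.52), 1.99-fold, with an adjusted p of 0.882.

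SERPINB2, an inhibitor of plasminogen activators, differed through ursodeoxycholic acid. Its arrays read 7.09, 7.0 and 7.36 with that agent and 5.53, 5.29 and 5.04 with glycyrrhizin, while control read 5.37, 4.95 and 4.91. Glycyrrhizin was close to control, and ursodeoxycholic acid was higher than every other array. Silymarin arrays ranged widely, at 5.44, 3.01 and 5.0. The difference between the agents was -1.86 (SE 0.5), with an adjusted p of 0.882.

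The other genes on this side were SUV39H2, a histone H3 lysine methyltransferase, PMEPA1, an inhibitor of TGF-beta signalling (-1.82), EVI2A (-1.66), CIP2A, an inhibitor of protein phosphatase 2A (-1.31), CLCA4 (-1.22), TBXT, the mesodermal transcription factor brachyury (-1.2), C8orf17 (-1.15), SLTM (-1.07) and REM2, a small GTPase that restrains calcium channels (-0.9). SUV39H2 differed by -1.46 at its brightest probe and by -0.07 (SE 0.4) at its other probe. The control mean lay nearer to ursodeoxycholic acid in 8 of the 12 and nearer to glycyrrhizin in 4.

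**Figure D2:**
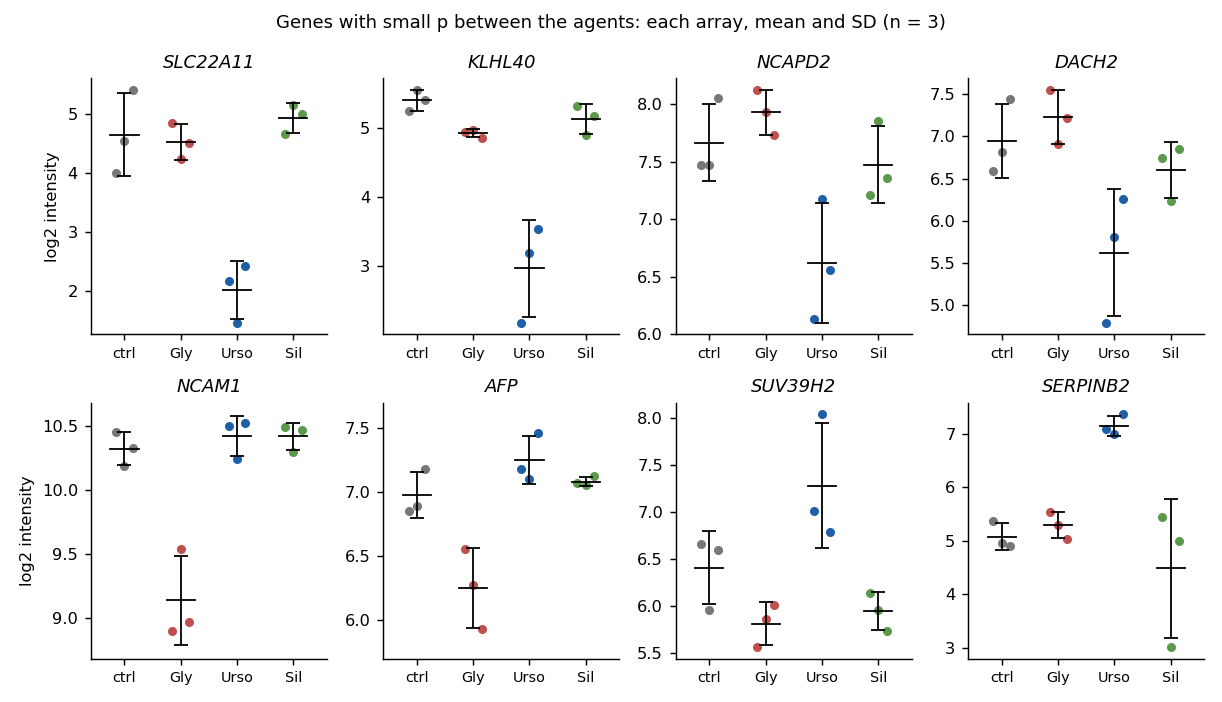
Log2 intensity (vertical axes, each panel on its own scale) of 8 of the genes with the smallest p between the agents on each array of the 4 groups (horizontal axes: control, glycyrrhizin, ursodeoxycholic acid, silymarin), with the group mean and SD over 3 arrays. In SLC22A11, KLHL40, NCAPD2 and DACH2 the ursodeoxycholic acid arrays sit low, in NCAM1 and AFP the glycyrrhizin arrays sit low, and in SERPINB2 the ursodeoxycholic acid arrays, between 7.0 and 7.36, sit above all others.

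Enzymes of bile acid synthesis and conjugation did not pass the test in any of the 14 members measured of 16 listed. In this list 9 were measured higher with glycyrrhizin and 5 lower, 2 had an unadjusted p under 0.05, both on the higher side (2.47% over all genes), and the median difference was 0.24 against -0.00286 over all genes. BAAT, which joins bile acids to glycine or taurine, had the smallest p of the list. It read 6.44, 7.42 and 6.54 with glycyrrhizin and 5.49, 5.48 and 6.02 with ursodeoxycholic acid. The groups did not overlap, and control (5.82) lay nearer to ursodeoxycholic acid. The difference was 1.13 (0.5 to 1.76, adjusted limma p 0.882).

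CYP27A1, the sterol 27-hydroxylase that opens the acidic pathway of synthesis, read 10.35, 10.7 and 11.1 against 9.72, 9.47 and 10.62, a difference of 0.78 (0.0 to 1.55) between groups that overlapped. CYP7A1, the rate-limiting enzyme of the classical pathway, read 5.78, 6.2 and 5.51 against 4.73, 5.83 and 6.11, and its difference of 0.27 (-0.51 to 1.05) was not measured closely enough to exclude a 2-fold difference upward. CYP8B1, the 12-alpha-hydroxylase that sets the ratio of cholic to chenodeoxycholic acid, was alike: it read 8.83, 8.53 and 8.72 against 8.85, 8.62 and 9.01, with an interval of -0.76 to 0.49. CYP46A1 (-0.44 to 0.43), CYP7B1 (-0.92 to 0.51), HSD17B4 (-0.57 to 0.85) and AKR1D1 (-0.54 to 0.97) also kept inside 2-fold. The widest intervals of the list were those of HSD3B7 (-2.11 to 0.5) and CYP39A1 (-1.91 to 0.77).

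Carriers of bile acids and organic anions were measured mostly lower with glycyrrhizin, in 9 of 14 members (of 21 listed), with a median difference of -0.35. None passed the test and none had an unadjusted p under 0.05. The uptake carrier NTCP (SLC10A1) differed by -0.38 (-1.02 to 0.27), the bile salt export pump ABCB11 by -0.4 (-1.14 to 0.35), the conjugate export pump ABCC2 by -0.35 (-0.96 to 0.25) and the sterol transporter subunit ABCG5 by -0.58 (-1.35 to 0.2). ABCB4, the phospholipid floppase of the canalicular membrane, read 5.56, 7.22 and 5.73 against 7.35, 6.68 and 6.26. The flippase ATP8B1 lay on the other side (0.46, -0.54 to 1.46). SLCO1A2, an uptake carrier, gave 0.61 (-0.26 to 1.47) at its brightest probe and -0.34 (SE 0.52) at a probe of equal brightness. The brightest members, SLC22A7 and ABCC3, differed by -0.34 (-1.0 to 0.32) and 0.22 (-0.37 to 0.81). The median of this list ranged from -0.35 to -0.04 over the alternative settings.

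Bile acid receptors and their targets gave 11 higher and 7 lower among 18 measured of 24, with a median of 0.09 (-0.04 to 0.14 over the alternative settings). GPBAR1, which encodes TGR5, had the only unadjusted limma p under 0.05, 1 of 18 members, where 4.68% of all genes were so called. It read 6.37, 6.41 and 6.13 with glycyrrhizin and 6.99, 7.25 and 6.8 with ursodeoxycholic acid, without overlap, and the difference was -0.71 (-1.4 to -0.02, adjusted limma p 0.882). Control (6.02) and silymarin (6.13) lay nearer to glycyrrhizin. Over all genes the groups of the agents did not overlap in 11.6%.

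Genes of the FXR axis had no unadjusted limma p under 0.05, and a contrast between TGR5 and this axis was not tested. NR1H4, which encodes FXR, read 5.36, 4.75 and 6.48 against 4.85, 5.15 and 5.18. Its target NR0B2, the small heterodimer partner that represses bile acid synthesis, was alike at 9.7, 9.35 and 9.25 against 9.48, 9.61 and 9.7, with an interval of -0.62 to 0.29. FGF19, a hormone that FXR induces in the gut, differed by 0.19 (-0.61 to 1.0), its receptor FGFR4 by 0.06 (-0.37 to 0.49) and the co-receptor KLB by 0.43 (-0.19 to 1.06). INSIG2, which retains sterol sensors in the endoplasmic reticulum and was the brightest gene of the list, differed by -0.13 (-0.62 to 0.36). PLTP, the phospholipid transfer protein, differed by 0.12 (-0.42 to 0.67).

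Genes of cortisol activation and the glucocorticoid response showed no member with an unadjusted p under 0.05 among 18 measured of 21, with 9 on each side and a median of -0.04 (-0.11 to 0.12 over the alternative settings). HSD11B1, the dehydrogenase that regenerates cortisol in liver, read 6.28, 6.04 and 5.42 with glycyrrhizin and 4.85, 6.51 and 5.8 with ursodeoxycholic acid, overlapping groups with an interval of -0.86 to 1.24. The glucocorticoid receptor NR3C1 was dim and scattered, from 3.56 to 5.4 against 2.42 to 5.4, and its interval of -1.69 to 2.2 says little. The mineralocorticoid receptor NR3C2 differed by 0.44 (-0.66 to 1.54).

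The target genes of the receptor were measured more closely. TSC22D3, which encodes the glucocorticoid-induced leucine zipper, read 11.77, 11.98 and 11.69 against 11.85, 11.88 and 11.7, so that its interval was -0.44 to 0.46. The other bright members were alike as well: CEBPB lay between -0.59 and 0.43 and KLF9 between -0.68 and 0.44. PER1, the clock repressor, differed by 0.44 (-0.11 to 0.99), TAT, tyrosine aminotransferase, by 0.54 (-0.17 to 1.26), CEBPD by -0.42 (-0.98 to 0.14) and DUSP1, a phosphatase of MAP kinases, by -0.29 (-1.02 to 0.45). PCK1, the enzyme that commits carbon to glucose synthesis, differed by 0.02 (-0.79 to 0.82).

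**Figure D3:**
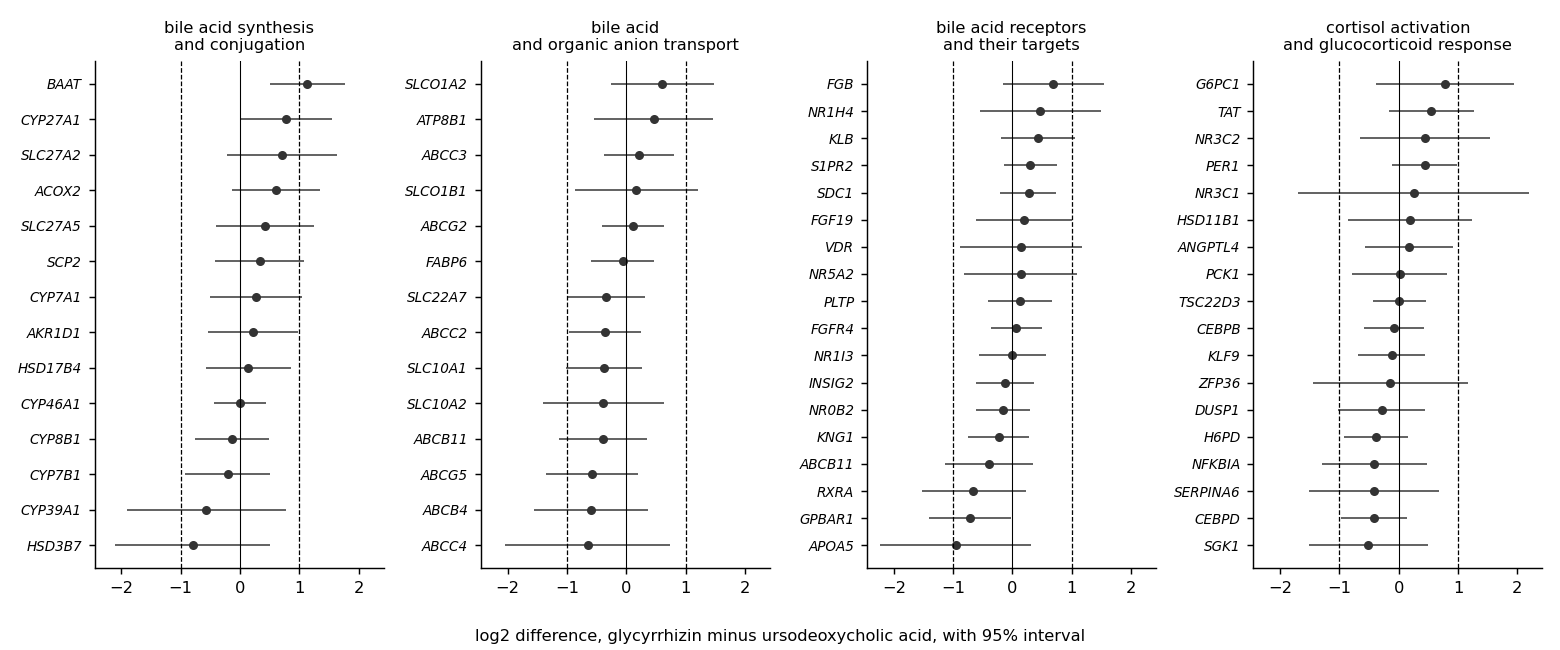
Log2 difference, glycyrrhizin minus ursodeoxycholic acid, with its 95% interval from limma (horizontal axes, dashed lines at 2-fold) for every measured member of 4 gene lists (vertical axes). The intervals of BAAT and GPBAR1 lie on one side of 0, and those of CYP8B1, NR0B2, TSC22D3 and CEBPB lie wholly inside 2-fold.

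Likeness was read from the interval, since a p that misses the threshold does not show that values are equal. A gene is called alike here where its 95% interval lay wholly inside 2-fold, from -1 to 1 on the log2 scale. This held for 6532 of 13881 genes (47.1%). It depended on brightness: over 10 equal classes from dim to bright the share alike rose from 4.46% to 89.5%, as the median SE went from 0.607 to 0.208. Only 686 genes (4.94%) were measured 2-fold or more apart, 138 of them among the brighter 6940 genes, and 6 intervals (0.0432%) lay wholly outside 2-fold. A narrower band of 1.5-fold held 1423 genes (10.3%).

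Because of that dependence each family's count is set beside the number that the brightness classes of its members would give. None of 77 families and lists had a member past the threshold. Their median differences ran from -0.35 to 0.33, and 49 of the 77 lay within 0.1 of 0. In 49 the count of alike members was within 2 of the number given by brightness; it was below that number in 49 and at or above it in 28. These are descriptions of the families, with no test of a family against other genes.

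Families of the basic cell machinery had no member past the threshold. Of 31 cytosolic ribosomal proteins and close paralogs 17 were alike (brightness gives 18.6), of 65 mitochondrial ribosomal proteins 32 (31.0), of 29 proteasome subunits 19 (19.4), and of 30 subunits of respiratory complex I 17 (16.4). Of 33 translation initiation factors 18 were alike (21.4), of 40 spliceosome and RNA-binding genes 23 (25.7), of 60 chaperones 29 (31.6) and of 27 RNA polymerase subunits 18 (15.9). Of all genes 4.94% were measured 2-fold or more apart. So were 4 of 30 complex I subunits, 4 of 65 mitochondrial and 2 of 31 cytosolic ribosomal proteins and 3 of 60 chaperones. Among initiation factors 1 of 33 was so measured, among RNA polymerase subunits 1 of 27, and among proteasome and spliceosome genes 0. Complex I subunits ran from -1.12 to 1.23, and the bright member NDUFS4 lay within -0.51 to 0.23. The ribosomal protein RPS4X (-0.34 to 0.42) and the proteasome subunit PSMB4 (-0.43 to 0.4) lay at 15.88 and 15.9, near the top of the intensity range, where a difference may be compressed, which was not tested. An unadjusted limma p under 0.05 was seen in 2 cytosolic ribosomal proteins of 31, both higher with glycyrrhizin. It was seen in 3 higher and 1 lower of 65 mitochondrial ribosomal proteins, and in 1 lower of 29 proteasome subunits. Of all genes, 2.47% were so called on the higher side and 2.2% on the lower. PSMB5, the chymotrypsin-like catalytic subunit, read 11.72, 12.04 and 11.39 with glycyrrhizin and 12.74, 12.33 and 12.43 with ursodeoxycholic acid (-0.78, -1.28 to -0.29), where control averaged 12.75. RPS27L, a paralog of a ribosomal protein, read 8.62, 8.67 and 8.45 against 7.78, 8.05 and 7.74 (0.72, 0.31 to 1.14). Among mitochondrial ribosomal proteins MRPL47 differed by -1.15 and MRPL48 by 1.12, in opposite directions. All of these had an adjusted limma p over the threshold.

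In families of transcription factors, members measured 2-fold or more apart are set beside 4.94% of all genes. Of the 686 such genes only 138 lay among the brighter 6940. The median level was 6.11 for zinc finger proteins, 7.47 for Kruppel-like and AP-1 factors and 7.03 for SOX, FOX and GATA factors. Whether these families differ in such counts was not tested. Of 312 zinc finger proteins 23 were measured 2-fold or more apart and 121 were alike (120.9 by brightness), and of 34 Kruppel-like and AP-1 factors 3 were 2-fold apart and 20 alike (19.1). Of 59 SOX, FOX and GATA factors 34 were alike, above the 28.7 given by brightness, none was measured 2-fold apart, and the members ran from -0.65 to 0.8. FOXA1, FOXA2 and FOXA3, pioneer factors of liver development, differed by 0.19, -0.01 and -0.32. Of 33 HOX genes 17 were alike (17.8). Of 39 nuclear receptors only 15 were alike where 19.1 was given by brightness, though none was 2-fold apart: the oestrogen receptor ESR1 differed by -0.76 (-1.53 to 0.02) and the orphan receptor NR2F1 by 0.7 (-0.1 to 1.5; 0.25 at its other probe), while the thyroid hormone receptor THRA, the brightest, lay within -0.4 to 0.34.

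Interleukins and their receptors were alike in 37 of 71 members (32.6 by brightness). IL1RL1, the receptor of interleukin 33, read 9.35, 9.29 and 9.47 against 8.89, 8.91 and 8.87, a small difference of 0.48 (0.04 to 0.92) between arrays that agreed closely. Of 22 STAT, IRF and SOCS genes 13 were alike (11.6), and of 27 chemokines 9 (12.1). The 18 interferon-stimulated genes measured were split 9 to 9.

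Transporters had no member past the threshold. Of 289 solute carriers 119 were alike (132.9 by brightness), with 148 higher and 141 lower. Besides SLC22A11, the smallest p belonged to SLC10A3, a member of the bile acid carrier family by sequence. It read 11.3, 11.02 and 11.3 with glycyrrhizin and 10.46, 10.63 and 10.34 with ursodeoxycholic acid, where control averaged 10.52. The difference of 0.73 (0.31 to 1.16) was measured at a high level, with an adjusted limma p of 0.882. Its other probe, of nearly equal brightness, gave -0.07 (SE 0.19). SLC6A2, the noradrenaline transporter, read 8.16, 8.23 and 8.03 against 7.16, 7.73 and 7.17 (0.78, 0.28 to 1.29).

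Of 37 ABC transporters 26 were measured lower with glycyrrhizin, with a median of -0.25, and none had an unadjusted p under 0.05. The median was -0.12 without glycyrrhizin replicate 2, and also without the dimmest 25% of genes. In this family 14 members were alike (16.3 by brightness). ABCC5 was scattered with ursodeoxycholic acid, at 7.31, 10.14 and 8.87, against 9.14, 9.75 and 10.27 with glycyrrhizin.

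No secreted liver protein passed the test. Of 14 acute phase proteins measured 11 were higher with glycyrrhizin, but the median size of a difference was 0.13 and 8 were alike (6.3 by brightness). The median difference was 0.11, and -0.03 without ursodeoxycholic acid replicate 2. HPX, the haem scavenger hemopexin, read 10.14, 9.98 and 9.9 against 9.6, 9.65 and 9.64 (0.38, -0.06 to 0.81). TTR, transthyretin, differed by -0.84 (-1.69 to 0.01) at its brightest probe and by -0.14 (SE 0.54) at the other. ASGR1, a subunit of the asialoglycoprotein receptor, differed by 0.95 (0.16 to 1.74) at one probe and 0.07 (SE 0.23) at the other, 2 probes of similar brightness that disagreed. Of 14 apolipoproteins 9 were measured lower with glycyrrhizin, with a median of -0.25. APOB, the structural protein of very low density lipoprotein, read 8.87, 8.78 and 9.0 against 9.02, 9.12 and 9.23 (-0.24, -0.91 to 0.44). Coagulation factors went both ways, with F10 at 1.63 (0.49 to 2.78) and F9 at -1.87 (-3.27 to -0.46), both on scattered arrays.

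Sterol synthesis genes differed little at the median, though 2 members were measured 2-fold or more apart. The 20 measured genes of cholesterol synthesis and uptake had a median size of difference of 0.13, against 0.254 over all genes. Of them 11 were alike (9.7 by brightness). The mevalonate enzymes MVD (-0.34 to 0.51) and MVK (-0.34 to 0.43) were bright and alike. The members with an unadjusted limma p under 0.05, IDI1 (-0.95), STARD4 (1.48) and SC5D (1.79), were dim and went in both directions. They were 2 higher and 1 lower of 20, where 2.47% and 2.2% of all genes were so called. Genes of cholesterol efflux and of the oxysterol receptor LXR were measured lower with glycyrrhizin in 11 of 15, with a median of -0.26 and no unadjusted p under 0.05. SCARB1, the receptor for high-density lipoprotein, differed by -1.33 (-2.67 to 0.01), mostly through 1 array, ursodeoxycholic acid replicate 3. The ursodeoxycholic acid arrays read 8.06, 8.01 and 10.72, against 7.82, 7.75 and 7.23 with glycyrrhizin.

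Drug-metabolizing cytochromes P450 were alike in 7 of 16 members (8.6 by brightness). CYP1B1, a target of the aryl hydrocarbon receptor, read 8.05, 8.23 and 8.06 with glycyrrhizin and 8.77, 8.52 and 8.71 with ursodeoxycholic acid, without overlap, a difference of -0.55 (-0.97 to -0.14, adjusted limma p 0.882). CYP1A2, another target of that receptor, was alike, as described below with the genes on which both agents left control. CYP3A5 differed by 1.2 (0.11 to 2.28) and CYP2S1 by 0.69 (0.03 to 1.35). The 8 sulfotransferases, which conjugate steroids and bile acids, included 0 alike members (2.1 by brightness). SULT1A1 was the only 1 of the 8 with an unadjusted limma p under 0.05 (0.93, 0.06 to 1.8), where 4.68% of all genes were so called. The median level of the family was 5.68, below that of the median gene.

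Among structural families, 17 of 34 collagens, 10 of 18 tubulins and actins and 14 of 24 integrins were measured higher with glycyrrhizin. Of 48 keratins 33 were measured higher with glycyrrhizin, with a median of 0.14, and none had an unadjusted p under 0.05. Of 28 caspase and BCL2 family genes 20 were higher, with a median of 0.2 that ran from 0.07 to 0.27 over the alternative settings. BCL2L2, an inhibitor of apoptosis, read 11.38, 11.19 and 10.76 against 10.67, 10.62 and 10.26 (0.59, -0.02 to 1.21). BAX, its pro-apoptotic relative, lay within -0.58 to 0.36. Of the 24 genes of the unfolded protein and integrated stress response 17 were measured lower with glycyrrhizin, with a median of -0.12 and 14 alike (13.1 by brightness); the chaperone HSP90B1 (-0.61 to 0.36) and the asparagine synthetase ASNS (-0.59 to 0.39) were the brightest.

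Genes of the cell cycle had both close and scattered members. Of 18 genes of G2 and mitosis 6 were alike (9.7 by brightness). CCNA2 (-0.15 to 0.62) and PLK1 (-0.56 to 0.5), which drive entry into mitosis, were alike. The proliferation marker MKI67 read 7.95, 7.7 and 7.78 with glycyrrhizin and 5.66, 5.48 and 7.81 with ursodeoxycholic acid, so 2 of its 3 arrays were low. BUB1B, a checkpoint kinase, differed the other way by -1.71 (-3.08 to -0.34) at a dim probe. The replication licensing factor MCM7 lay within -0.26 to 0.57 and MCM5 within -0.23 to 0.54.

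**Figure D4:**
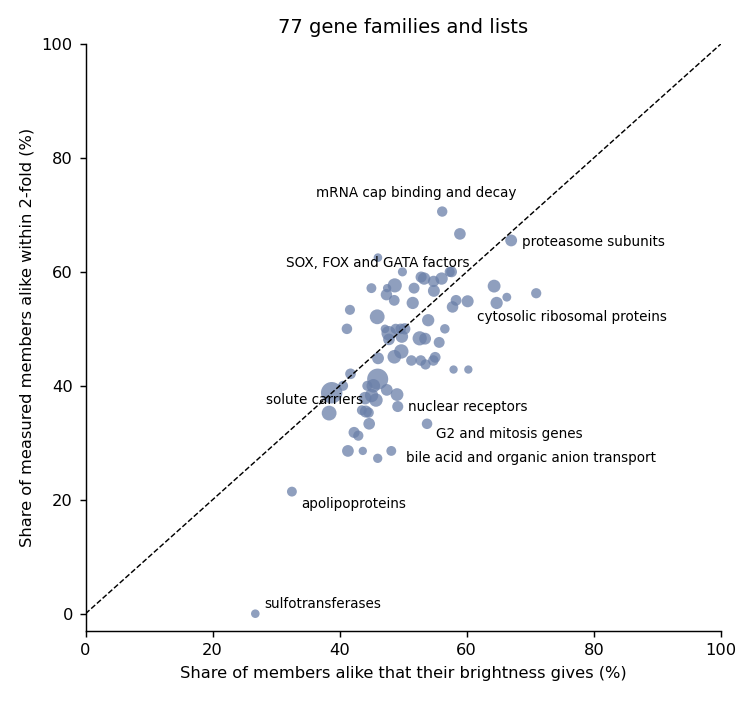
Share of measured members alike within 2-fold (vertical axis, percent) against the share that the brightness of the members gives (horizontal axis, percent) for 77 gene families and lists. Each point is a family, sized by its number of members, and the dashed line marks equal shares; the proteasome (19 of 29 alike) lies on the line, the SOX, FOX and GATA factors (34 of 59) above it and the sulfotransferases (0 of 8) at the bottom.

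The genes held closest between the agents, among those brighter than the median gene, were SEC61B, RAB1A, ING2, MARS, TMSB10, ANXA1, MAGED1, MPND, PKM and PHF10. SEC61B, a subunit of the protein-conducting channel of the endoplasmic reticulum, read 15.89, 15.88 and 15.91 against 15.94, 15.86 and 15.88. The glycolytic enzyme PKM read 15.85, 15.81 and 15.8 against 15.82, 15.76 and 15.81. These, with RAB1A, TMSB10, ANXA1 and MAGED1, lay near the top of the range, where the highest deposited intensity was 65221. At its other probe, at 10.91, SEC61B differed by -0.41 (SE 0.21), and MARS, at a dim probe, by -1.71 (SE 0.68). ING2, a reader of histone methylation, lay lower, at 13.39, 13.32 and 13.33 against 13.38, 13.32 and 13.33. For these 10 genes no interval of the brightest probe reached beyond 0.38 on the log2 scale.

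In some genes the agents were alike while both lay away from control. This joint pattern is described without a test of its own, since both agents are set against the same control arrays. MIEN1, a protein of cell migration, read 10.58, 10.38 and 10.49 with glycyrrhizin and 10.75, 10.53 and 10.93 with ursodeoxycholic acid, and averaged 12.03 in control and 12.08 with silymarin. The agents differed by -0.25 (-0.65 to 0.14), against distances of -1.54 and -1.29 from control, with adjusted limma p of 0.0512 and 0.0738. CLCN2, a chloride channel, read 10.16, 10.08 and 9.89 against 10.22, 9.89 and 10.2, with 11.39 in control; the agents differed by -0.05 (-0.45 to 0.34).

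CYP1A2, a hepatic cytochrome P450 that metabolizes caffeine, read 10.26, 9.79 and 9.89 against 10.26, 9.9 and 10.34, with 11.31 in control and 11.27 with silymarin. SYNE2, a nuclear envelope linker, lay at 9.85 and 9.73 with control at 11.32, and OAF at 11.22 and 11.17 with control at 12.16. In SYCE2, of the synaptonemal complex, both agents were above control, at 4.74 and 4.9 against 3.02, and silymarin was above it too at 5.21. In MIEN1, CLCN2, CYP1A2, SYNE2 and OAF the agents overlapped, and every array of both lay below the control mean. The genes were picked for being alike and away from control, so this arrangement follows in part from the choice.

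The genes that passed the threshold against silymarin showed how far the agents ran together there. MIEN1 and CLCN2 passed for both agents. DCPS, the scavenger decapping enzyme that hydrolyses cap remnants of decayed mRNA, read 11.56, 11.19 and 11.58 with glycyrrhizin and 11.43, 11.32 and 11.4 with ursodeoxycholic acid, with a mean of 8.41 with silymarin and 11.25 in control. Its distances from silymarin were 3.03 (adjusted limma p 0.0153) and 2.97 (0.0381), and the agents differed by 0.06 (-0.68 to 0.8). NCBP1, the cap-binding subunit, gave distances of 3.04 (0.0329) and 3.0 (0.0508). As the silymarin arrays are shared, these pairs of values are not independent.

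CYP1B1, HIPK3 and MTERF3 passed for glycyrrhizin and not for ursodeoxycholic acid. HIPK3, a homeodomain-interacting kinase, read 12.42, 12.18 and 11.56 with glycyrrhizin against 12.6, 12.62 and 12.83, and 14.02 with silymarin. MTERF3, a regulator of mitochondrial transcription, read 9.51, 9.4 and 9.15 against 10.1, 10.13 and 9.82. Between the agents the differences were -0.55 (-0.97 to -0.14) for CYP1B1, -0.63 (-1.2 to -0.06) for HIPK3 and -0.67 (-1.17 to -0.16) for MTERF3, each with an adjusted limma p of 0.882. So the test of the difference itself did not separate the agents in these genes, although the groups did not overlap in any of them.

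**Figure D5:**
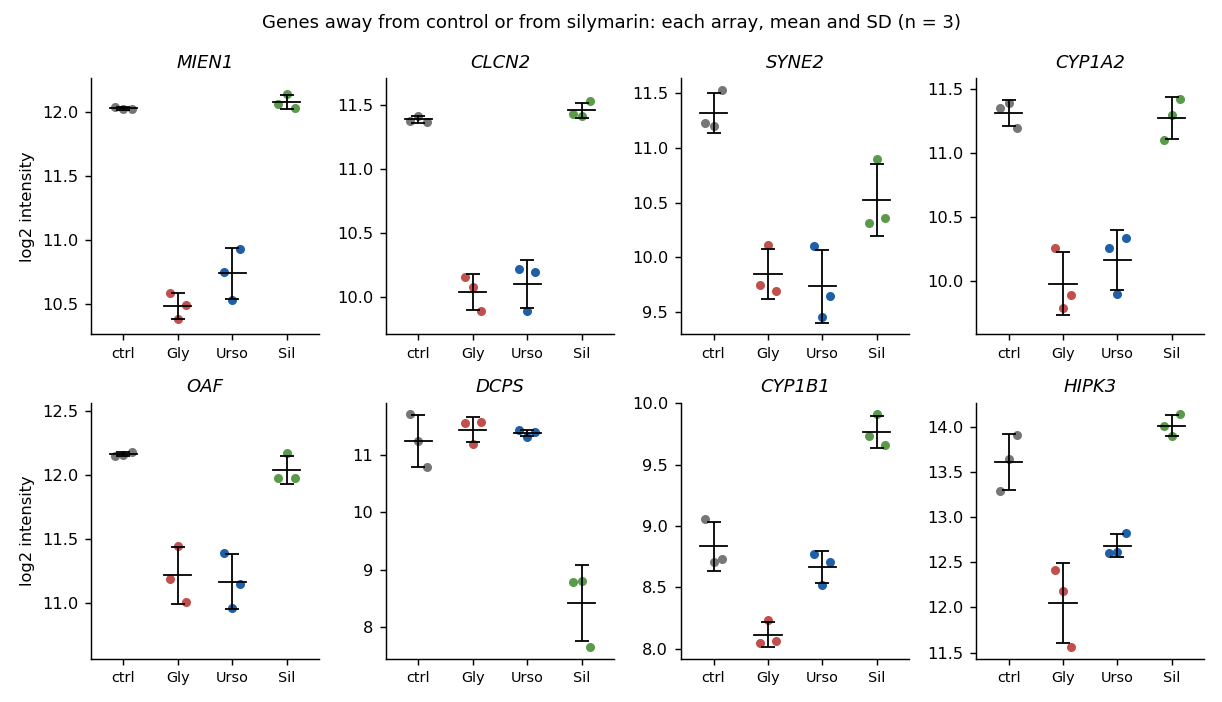
Log2 intensity (vertical axes, each panel on its own scale) of 8 genes that lay away from control or from silymarin, on each array of the 4 groups (horizontal axes: control, glycyrrhizin, ursodeoxycholic acid, silymarin), with the group mean and SD over 3 arrays. In MIEN1, CLCN2, SYNE2, CYP1A2 and OAF both agents sit below control, in DCPS silymarin sits low, and in CYP1B1 and HIPK3 the glycyrrhizin arrays sit below those of ursodeoxycholic acid.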

How the data were processed

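Total RNA was labelled with Cy5 and read on one-colour oligonucleotide arrays, per the labels' protocols. The authors deposited linear intensities, 1 for each probe on each array. The submitters' processing notes name limma without its steps. The 12 arrays already had nearly 1 distribution when deposited, with a median spread of 1.22% at a given rank. No detection call accompanied them. Of 27561 probes 15650 had 1 gene symbol, 0 several and 11911 none; 2355 symbols were updated through a current gene table and 68 with several possible updates were kept. The brightest probe stood for a gene (13881 genes, 1674 with several probes).

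On log2 values, limma 3.58.1 (R 4.3.3, lmFit and eBayes) fitted 4 group means over 12 arrays with the prior spread estimated over all probes (8 residual and 2.8 prior degrees of freedom). Tests were two-sided, adjusted by Benjamini-Hochberg over all genes, with a threshold of 0.05. Alike means a 95% interval inside 2-fold. Named were the 12 genes with the smallest p in each direction, of each family described the 3 with the smallest p and the 2 brightest, any member of the bile acid and cortisol lists, the 10 held closest, 6 alike and away from control, and, chosen after their values were seen, genes past the threshold against silymarin and further members of the marker and liver lists. The comparison, the gene lists and the families were chosen with earlier results of these data known. The fit was checked on simulated data.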

Additional observations from a re-analysis of the deposited data

Results flagged for a closer look

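Among the genes with the smallest p between the agents, 11 had every glycyrrhizin array on one side of the control mean and every ursodeoxycholic acid array on the other. The log2 differences, glycyrrhizin minus ursodeoxycholic acid, were 1.61 for PRPF38A, 1.56 for GET1 and 1.3 for NCAPD2 on the higher side, though another GET1 probe of nearly equal brightness gave -0.16. On the lower side they were -1.66 for EVI2A, -0.99 for AFP, -1.46 for SUV39H2, -1.2 for TBXT, -1.82 for PMEPA1, -1.15 for C8orf17, -1.31 for CIP2A and -1.22 for CLCA4, and SUV39H2 gave -0.07 at its other probe. The difference was tested in each with limma and did not pass, with adjusted p from 0.388 to 0.882. Over all genes this arrangement was seen in 261 (1.88%), and in 5 (0.036%) the agents lay on opposite sides of every control array. These 11 genes were picked for a small p between the agents.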

How the results depend on the processing

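The count of genes past the threshold was 0 under the main setting and in each of the 27 alternatives run, with a lowest adjusted limma p between 0.0561 (variance trend and robust estimation, NCAM1) and 0.908 (without the dimmest 25% of genes). The count of alike genes moved with an offset added before the log, to 10011 with 16 and 12667 with 50, since an offset shrinks the differences of dim genes, and to 1423 with a band of 1.5-fold. Leaving out 1 array gave 5007 to 6743. With the replicate number as a block (replicate block) 6449 genes were alike and the lowest adjusted limma p was 0.643. Deviations of same-numbered arrays of the agents correlated with r of -0.037 to 0.064 over 3 pairs, so no shared deviation was seen. Whether the numbers pair the arrays is not given in the labels, and these correlations cannot settle it. The 24 genes with the smallest p kept their direction in every alternative run. They were picked for a small p in these same arrays, and their groups did not overlap. Leaving out 1 array therefore could not reverse them, and the result is no separate support. Single other probes of GET1 and LINC01587 gave -0.16 and -0.09. Among the 622 other named or listed genes, none of them called, 212 changed sign in at least 1 alternative, as did 50 of the 77 family medians. Values moved beyond the spread between replicates in 132 cases for these other genes and in 21 for the family medians, and the families' counts of alike members moved by over 1.5 times in 168. Of the 11911 probes without a symbol, 0 passed and 607 had an unadjusted limma p under 0.05 when all probes were tested one by one, an alternative chosen after seeing the data, as was estimating the spread over the named genes alone. With 3 arrays a group the median interval reached 0.749 log2 units to either side, and dim genes were measured least closely.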

Other observations

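Genes of mRNA cap binding and decay, the list that holds DCPS and NCBP1, were measured higher with glycyrrhizin than with ursodeoxycholic acid in 14 of 17 members, with a median log2 difference of 0.11 (-0.02 without ursodeoxycholic acid replicate 3) and 12 alike where brightness gives 9.5. LSM4, of the ring that binds decaying mRNA, was the brightest member and lay within -0.27 to 0.55. The decapping factor DCP1A went the other way, by -0.59 (-1.25 to 0.06), and no member had an unadjusted limma p under 0.05.

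Of 28 WNT ligands, receptors and antagonists 8 were alike (11.6 by brightness). WNT2B read 5.69, 5.89 and 5.68 with glycyrrhizin and 6.59, 6.75 and 6.43 with ursodeoxycholic acid, and the receptor FZD3 differed by -1.26 (-2.22 to -0.31). Control averaged 6.67 for WNT2B, near ursodeoxycholic acid. The adjusted limma p was 0.882 for both.

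In the list of NRF2 and glutathione genes, which answer oxidative stress, 8 of 15 were alike (6.2 by brightness). KEAP1, the sensor that holds NRF2 in check, read 5.5, 5.64 and 5.51 against 4.85, 5.21 and 5.05 (0.51, 0.1 to 0.92). HMOX1, haem oxygenase, a target of NRF2, differed by 0.63 (-0.15 to 1.4), with control at 5.67 above both agents. Thioredoxin TXN gave an interval of -0.39 to 0.37 at a probe at 15.9, near the top of the intensity range, and -0.61 (SE 0.39) at a dim probe.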
